A study of Mus musculus with 16 samples.

Results

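Interferon-induced genes were followed across 4 genotypes of mouse calvaria, which form the roof of the skull. The list holds 24 targets of type I interferon and 15 genes of a second set, made up of guanylate-binding proteins and related GTPases, Irf1 and Irf8, antigen presentation genes of MHC class I and 2 chemokines. Of the 39 genes, 38 were measured and 29 had a signal high enough to be tested, against 16593 genes measured and 9914 tested in all. Where a gene had several probes, the probe with the highest mean log2 intensity stood for it. RNA came from male pups at postnatal day 7. Wild-type mice are written WT, Runx2+/- mice R-Het, Axin2-/- mice A-KO and Axin2-/-:Runx2+/- mice A-KO:R-Het, as the labels write them, and no further allele or agent is given for any group. Each array held RNA from its own mouse. Of the 15 arrays compared, A-KO had 3 and each of the other genotypes 4, and A-KO replicate 2 was left out because its label calls that array damaged.

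Interferons are secreted proteins, and cells release those of type I on sensing foreign or misplaced nucleic acid. Type I interferons act through Stat2 and Irf9, which bind the interferon-stimulated response element (ISRE) and switch on antiviral effectors. Interferon gamma, made mainly by T and NK cells, acts through the gamma-activated site (GAS) and raises Irf1, the guanylate-binding proteins and the antigen presentation machinery, and many genes answer to both. In bone, interferon signalling is best known for restraining the formation of osteoclasts, the cells that resorb bone. Wnt signalling induces Axin2, which dampens it in turn, and osteoblasts cannot form without the transcription factor Runx2.

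The promoter sequences of 6 genes are shown because the results turn on those genes. Gbp2 and Irf8 were the genes past the test, Igtp was the next in order of p, and Rsad2, Isg15 and Ifit3 were among the type I targets that marked 2 single arrays. RefSeq promoters (GRCm38.p6) were found for 30 of the 39 genes and hold the 250 bases before and 50 bases after each start. Each line gives the 200 bases directly before the start, 5′ to 3′ on the gene's own strand, with the matched letters in capitals. They lie at chr3:142620463-142620662 (plus strand), chr11:58199356-58199555 (plus), chr8:120736158-120736357 (plus), chr12:26456453-26456652 (minus), chr4:156200819-156201018 (minus) and chr19:34583329-34583528 (plus).
Gbp2: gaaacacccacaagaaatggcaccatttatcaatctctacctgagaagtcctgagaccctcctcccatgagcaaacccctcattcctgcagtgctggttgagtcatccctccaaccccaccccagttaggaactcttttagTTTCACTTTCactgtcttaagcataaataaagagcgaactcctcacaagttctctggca
Igtp: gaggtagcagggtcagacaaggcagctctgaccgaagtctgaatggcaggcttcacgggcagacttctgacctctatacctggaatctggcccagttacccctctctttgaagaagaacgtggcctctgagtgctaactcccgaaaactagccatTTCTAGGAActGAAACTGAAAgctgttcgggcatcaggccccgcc
Irf8: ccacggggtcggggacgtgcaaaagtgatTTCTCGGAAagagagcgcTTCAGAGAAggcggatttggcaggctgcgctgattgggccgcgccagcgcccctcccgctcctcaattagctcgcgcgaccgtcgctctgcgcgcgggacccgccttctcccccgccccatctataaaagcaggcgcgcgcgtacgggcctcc
Rsad2: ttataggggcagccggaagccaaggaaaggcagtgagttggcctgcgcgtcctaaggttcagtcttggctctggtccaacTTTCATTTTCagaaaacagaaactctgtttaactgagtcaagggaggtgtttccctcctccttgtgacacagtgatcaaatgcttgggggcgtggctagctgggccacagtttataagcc
Isg15: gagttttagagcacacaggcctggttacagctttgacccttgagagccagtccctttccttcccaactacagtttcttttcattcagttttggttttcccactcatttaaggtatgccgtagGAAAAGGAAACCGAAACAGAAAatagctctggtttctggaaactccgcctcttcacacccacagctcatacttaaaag
Ifit3: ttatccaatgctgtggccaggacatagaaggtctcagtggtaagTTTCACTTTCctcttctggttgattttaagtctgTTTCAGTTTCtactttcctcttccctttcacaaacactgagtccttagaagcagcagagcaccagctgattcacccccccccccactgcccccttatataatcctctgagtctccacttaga

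The ISRE was searched as GAAA, 2 bases of any kind and GAAA again, and the GAS as TTCNNNGAA, both on either strand, and matches of both motifs could overlap. Gbp2 had 1 ISRE match, which began at −59 from the start. Igtp had both motifs side by side, with the GAS match at −45 and the ISRE match at −34. Irf8 had 2 GAS matches, at −171 and −153, and no ISRE match in its window. Isg15 carried 3 overlapping ISRE matches at −78, −72 and −66, and Ifit3 had 2, at −156 and −122. In the full windows, 13 of the 30 genes (43.3%) held an ISRE match, against 1079 of 27025 genes in all (3.99%). A GAS match was present for 8 of the 30 (26.7%), against 2582 of 27025 (9.55%). An ISRE match was present in 7 of 18 type I targets (38.9%) and 6 of 12 genes of the other set, and a GAS match in 4 of 18 (22.2%) and 4 of 12 (33.3%). A match is a description of these letters and not evidence of binding.

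The deposited values were normalized linear intensities, and all levels are given as log2 of them. The median probe of an array had an intensity of 92.9 to 95.5, and each of the 2 chips held 2 arrays of every genotype, of which 1 on chip 1 was the damaged A-KO array. The osteoblast markers Bglap, Ibsp, Col1a1, Col1a2, Sp7, Alpl and Phex were all above the filter, with a summed intensity of 72633 to 105960 in WT. Axin2 was read by 1 probe, at 7.42 to 7.88 in WT, 7.90 to 8.09 in R-Het, 7.26 to 7.67 in A-KO and 7.39 to 7.74 in A-KO:R-Het. The WT and A-KO ranges overlapped, and every R-Het array lay above every A-KO:R-Het array. Where that probe lies relative to the deleted part was not given in the sources used here. It therefore checks no label, and Runx2 is not analysed here.

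Of the 38 measured genes, 9 stayed below the filter, which asked for a value above the array's median on at least 3 arrays. They were the antiviral effectors Ifit1, Mx1, Oasl1 and Xaf1, the RNA sensor Ifih1, the transcription factor Irf7, the ADP-ribosyltransferase Parp9 and the GTPases Gbp4 and Iigp1. Ifi44 is not analysed here. Rtp4, above the median on 3 arrays, and Mx2 and Psmb8, on 4, were just inside, and Irf7, on 2, was just outside. The tested genes were thus 16 type I targets and 13 genes of the Gbp, Irf1 and MHC set. Passing the filter did not require a difference between genotypes, but a gene near it could pass through its high arrays alone.

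Among the type I targets, single mice stood apart within their own genotype. WT replicate 4 was among the 3 highest arrays for 16 of 16 tested type I targets and the highest of all for 9. Rtp4 and Mx2 were above the array's median on only 3 and 4 arrays, WT replicate 4 among them. The filter thus fixed part of that count, and the same count over all genes was not computed. R-Het replicate 4 was among the 3 highest for 10 of 16. After each gene was centred on its mean over the 15 arrays, the 16 genes averaged 0.65 on the log2 scale in WT replicate 4 and 0.50 in R-Het replicate 4, and the next array was A-KO replicate 3 at 0.17. A-KO replicate 4 was the lowest at −0.36 and was the lowest array for 6 of the 16 genes. Both high arrays lay on chip 2, as did A-KO replicate 4. The centred level of skeletal muscle markers was 2.38 in R-Het replicate 4 and −0.43 in WT replicate 4. The part of muscle or other cells in the order of the arrays was not tested.

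Rsad2, which encodes the antiviral enzyme viperin, had the widest range of the list over the 15 arrays, at 2.73 on the log2 scale. Its log2 intensity in replicate order was 8.38, 8.01, 7.97 and 9.82 in WT, 8.69, 7.32, 7.40 and 9.74 in R-Het, 7.34, 8.26 and 7.24 in A-KO, and 8.61, 7.09, 7.10 and 8.17 in A-KO:R-Het. WT replicate 4 and R-Het replicate 4 stood at 9.82 and 9.74, and no other array passed 8.69. Oasl2, a 2′-5′ oligoadenylate synthetase-like gene, was at 8.10, 7.58, 7.48 and 9.10 in WT, 7.68, 7.14, 7.34 and 8.88 in R-Het, 7.53, 8.45 and 7.16 in A-KO, and 7.36, 7.75, 7.35 and 7.78 in A-KO:R-Het. The same WT and R-Het mice were the highest, and A-KO replicate 3 came next. Usp18, the protease that removes Isg15 from its targets, reached 8.01 in WT replicate 4, 7.50 in A-KO replicate 3 and 7.48 in R-Het replicate 4, against 6.40 to 7.20 on the other arrays.

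**Figure D1:**
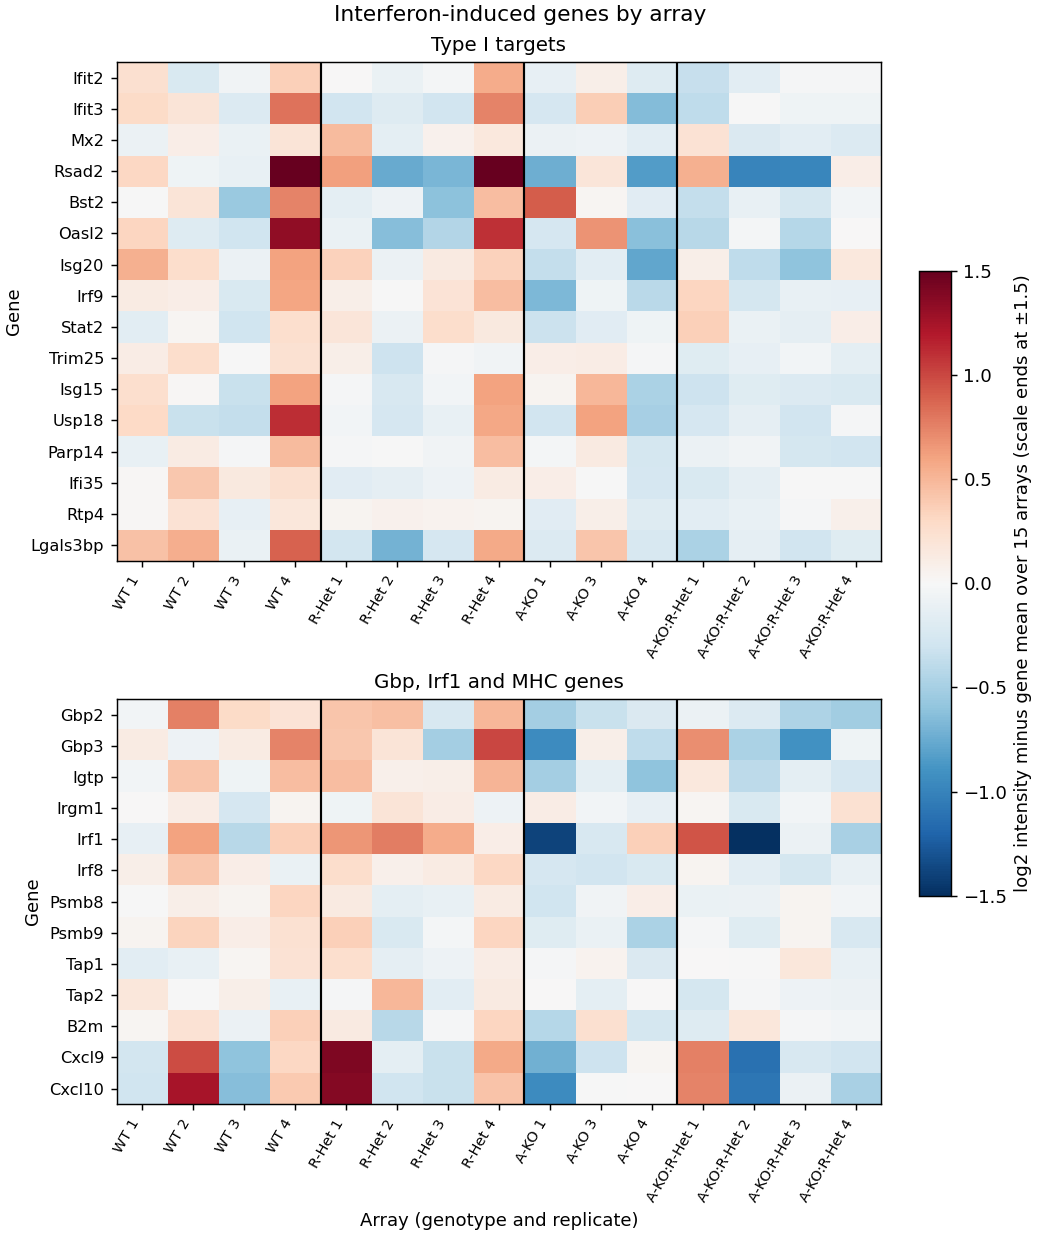
Each cell is the log2 intensity of 1 gene on 1 array minus the gene's mean over the 15 arrays, with arrays in columns by genotype and replicate, type I targets in the upper panel and Gbp, Irf1 and MHC genes in the lower. The colour scale ends at ±1.5. The columns of WT replicate 4 and R-Het replicate 4 are red over most type I targets, with Rsad2 at 9.82 and 9.74. The chemokine rows are reddest in WT replicate 2 and R-Het replicate 1.

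The Gbp, Irf1 and MHC genes ranked the mice in a partly different order. Their centred mean was highest in R-Het replicate 1 (0.44) and WT replicate 2 (0.38), where the type I targets stood at 0.05 and 0.10. R-Het replicate 4 (0.34) and WT replicate 4 (0.26), the arrays highest in type I targets, came next. The centred mean was lowest in A-KO replicate 1 (−0.47) and A-KO:R-Het replicate 2 (−0.41). The spread of the set's centred mean between mice of 1 genotype had a pooled SD of 0.235, against 0.273 for the type I targets. A-KO:R-Het replicate 1 was the one array without Axin2 above 0 for the Gbp, Irf1 and MHC genes, at 0.21.

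**Figure D2:**
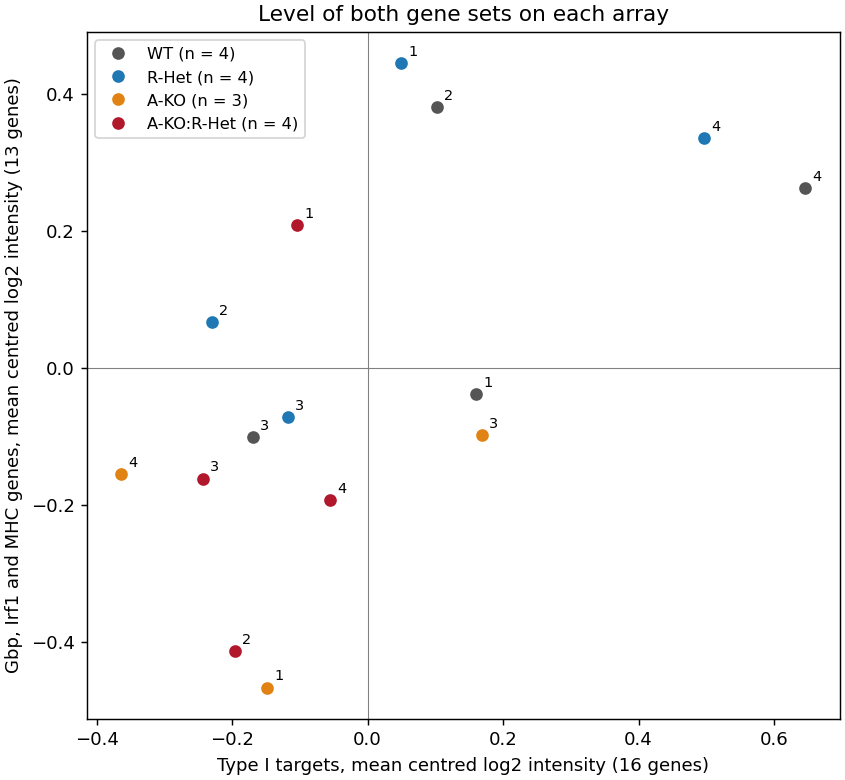
Each point is 1 array, with the mean centred log2 intensity of the 16 type I targets on the x axis and of the 13 Gbp, Irf1 and MHC genes on the y axis, coloured by genotype and numbered by replicate. WT replicate 4 and R-Het replicate 4 lie far right at 0.65 and 0.50, while R-Het replicate 1 and WT replicate 2 are highest on the y axis at 0.44 and 0.38. Of the 7 arrays from mice without Axin2, 6 lie below 0 on the y axis. Among arrays with Axin2, WT replicate 1 (−0.04), WT replicate 3 (−0.10) and R-Het replicate 3 (−0.07) also lie below 0.

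Loss of Axin2, averaged over mice with 2 and with 1 functional Runx2 allele, lowered 2 of the 29 tested genes. Gbp2, an interferon-induced GTPase that attacks the vacuoles of intracellular pathogens, fell 1.55-fold, and Irf8, a transcription factor of myeloid and B cell development, fell 1.27-fold. No tested gene of the list rose. The same comparison called 46 of all 9914 genes lower (0.464%) and 18 higher (0.182%). At an unadjusted p under 0.05, 9 of the 29 were lower, against 6.45% of all genes. The log2 change was below 0 for 28 of 29, against 46.8% of all genes, and Bst2, the membrane tether of budding viruses, was the exception at 0.03 ± 0.20 (SE). The median change was −0.23 over the 29 genes and 0.01 over all genes tested. The 29 genes were measured on the same mice, so they are not independent of each other. They were also chosen with earlier results of these data known, so these shares are a description only.

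Gbp2 stood at 8.58, 9.37, 8.90 and 8.81 in WT, 9.03, 9.06, 8.37 and 9.11 in R-Het, 8.10, 8.28 and 8.39 in A-KO, and 8.52, 8.41, 8.15 and 8.09 in A-KO:R-Het. Every array without Axin2 lay at or below 8.52, and every array with Axin2 was higher except R-Het replicate 3. Gbp2 had 3 probes, and only the probe used here passed the filter, so no other probe was read beside it. The group means were 8.91 ± 0.33 (SD, n = 4) in WT, 8.89 ± 0.35 (SD, n = 4) in R-Het, 8.26 ± 0.15 (SD, n = 3) in A-KO and 8.29 ± 0.21 (SD, n = 4) in A-KO:R-Het. Averaged over Runx2 genotypes the log2 change was −0.63 ± 0.13 (SE), with an adjusted p of 0.0372 in limma. It was −0.66 ± 0.19 in A-KO against WT (adjusted p = 0.149) and −0.60 ± 0.18 in A-KO:R-Het against R-Het (adjusted p = 0.734), so neither single comparison passed. It was −0.72 on chip 1 and −0.57 on chip 2, and −0.61 with chip as a block (adjusted p = 0.0444). The call held when WT replicate 1, R-Het replicate 1, R-Het replicate 3 or A-KO:R-Het replicate 1 was left out, and was lost when any of the other 11 arrays was, with changes between −0.72 and −0.55 over all 15 and adjusted p between 0.0512 and 0.122 where it was lost.

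Irf8 stood at 7.45, 7.77, 7.46 and 7.27 in WT, 7.64, 7.44, 7.49 and 7.68 in R-Het, 7.12, 7.08 and 7.13 in A-KO, and 7.41, 7.21, 7.10 and 7.25 in A-KO:R-Het. The 3 A-KO arrays lay between 7.08 and 7.13 and below every other group's arrays except A-KO:R-Het replicate 3. Means were 7.49 ± 0.21 (SD, n = 4) in WT, 7.56 ± 0.12 (SD, n = 4) in R-Het, 7.11 ± 0.03 (SD, n = 3) in A-KO and 7.24 ± 0.13 (SD, n = 4) in A-KO:R-Het. The averaged change was −0.35 ± 0.08 (SE, adjusted p = 0.0477 in limma), and it was −0.38 ± 0.11 in A-KO against WT and −0.32 ± 0.10 in A-KO:R-Het against R-Het. It was −0.36 on chip 1 and −0.33 on chip 2, and with chip as a block the call was lost at −0.34 (adjusted p = 0.0556), as it was with skeletal muscle marker level as a covariate, at −0.35 (adjusted p = 0.0504). The call held when either A-KO:R-Het replicate 1 or WT replicate 4 was left out and was lost without any of the other 13 arrays, at adjusted p between 0.0554 and 0.119. The calls of both Gbp2 and Irf8 were also lost with the damaged array kept in, on either chip alone, and when the 3 arrays with most skeletal muscle marker signal were left out.

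Markers of other cells were read in the same contrast, in which 0.464% of all genes were called lower and 6.45% were lower at an unadjusted p under 0.05. The B cell markers Cd79a, Cd79b, Vpreb1 and Vpreb3, 4 of 7 listed that passed the filter, all fell with Axin2 loss past the adjusted threshold in limma, by a median of 0.94 on the log2 scale. Their summed intensity was 777 to 1141 in WT, 688 to 1268 in R-Het, 335 to 439 in A-KO and 547 to 723 in A-KO:R-Het. The neutrophil markers, 8 of 8 tested, had a median change of −0.79, with 8 lower at an unadjusted p under 0.05 and 0 past the adjusted threshold. Their sum was 10882 to 19965 in WT, 10891 to 13915 in R-Het, 5724 to 9541 in A-KO and 3052 to 12439 in A-KO:R-Het. Macrophage markers, 6 of 8 tested, had a median of −0.01, and their sums overlapped between all genotypes, from 2634 to 3689 over the 4 groups. Of 6 dendritic cell markers 2 were tested, Siglech and Zbtb46, with a median of −0.08, and Flt3, Itgax, Xcr1 and Ccr9 were below the filter. Of 6 erythroid markers 3 were tested, with a median of −0.99 3 lower at an unadjusted p under 0.05 and 0 past the adjusted threshold in limma, and their sum was 22410 to 29064 in WT, 18366 to 27430 in R-Het, 11975 to 19877 in A-KO and 10092 to 27359 in A-KO:R-Het. Skeletal muscle markers, 6 of 6 tested, had a median of −0.38, with sums from 2776 to 71358 that overlapped between all genotypes. Of 6 endothelial markers 5 were tested. Their sum was 3847 to 4487 in WT, 2958 to 4577 in R-Het, 3869 to 4009 in A-KO and 2956 to 3678 in A-KO:R-Het. Osteoblast marker sums overlapped between all genotypes, from 72633 to 105960 over the 4 groups. None of 8 T and NK cell markers, Cd3e, Cd3d, Cd3g, Cd4, Cd8a, Nkg7, Klrd1 and Gzma, passed the filter. The part of these cells in the changes of Gbp2 and Irf8 was not tested, and in whole calvaria fewer cells of a type and less RNA per cell cannot be told apart.

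**Figure D3:**
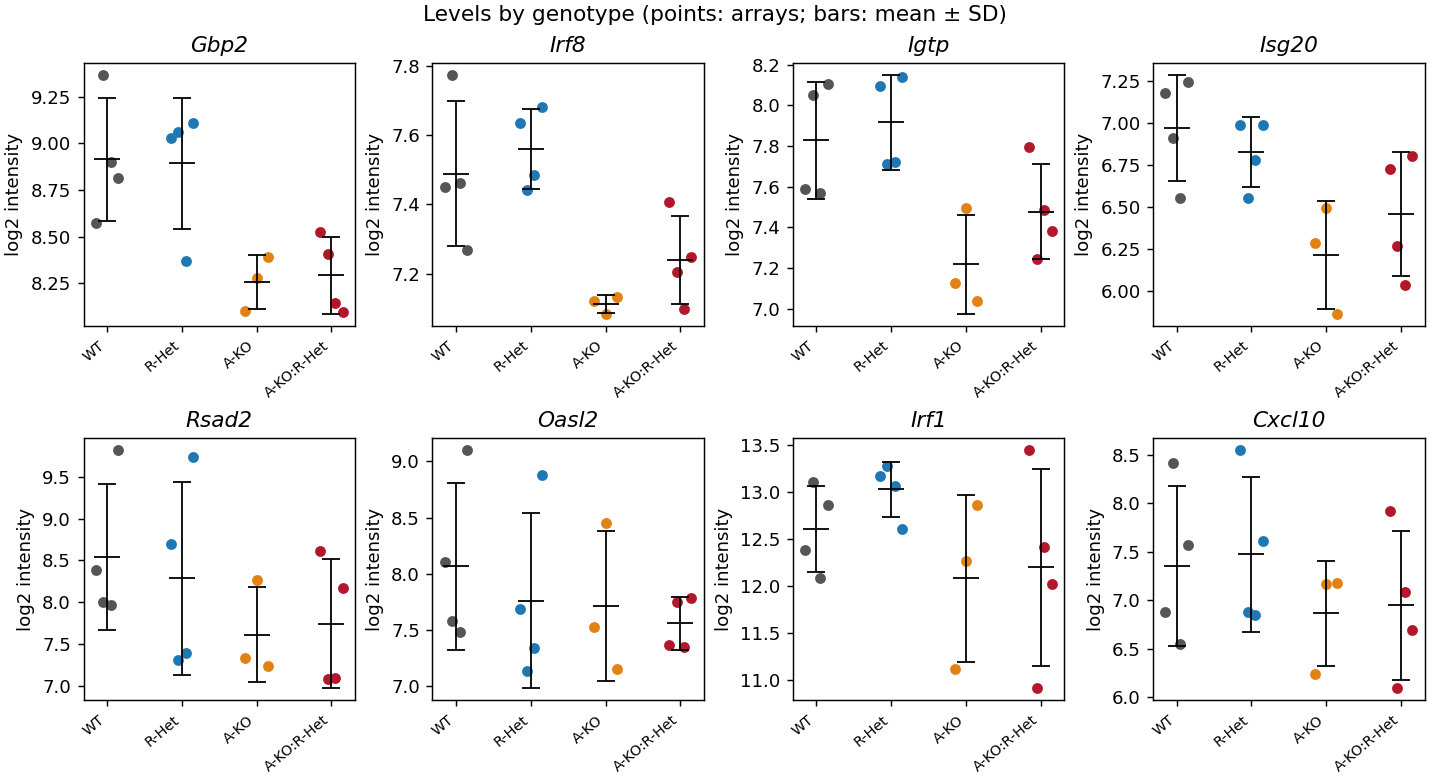
Points are single arrays, with the mean and SD of each genotype as bars, and the y axes give log2 intensity and do not start at 0. Gbp2 and Irf8 are lower in both groups without Axin2, at means of 8.26 and 7.11 in A-KO against 8.91 and 7.49 in WT. Rsad2 and Oasl2 are each highest in 1 WT and 1 R-Het array. For Oasl2 an A-KO array follows at 8.45, against 8.88 in that R-Het array.

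**Figure D4:**
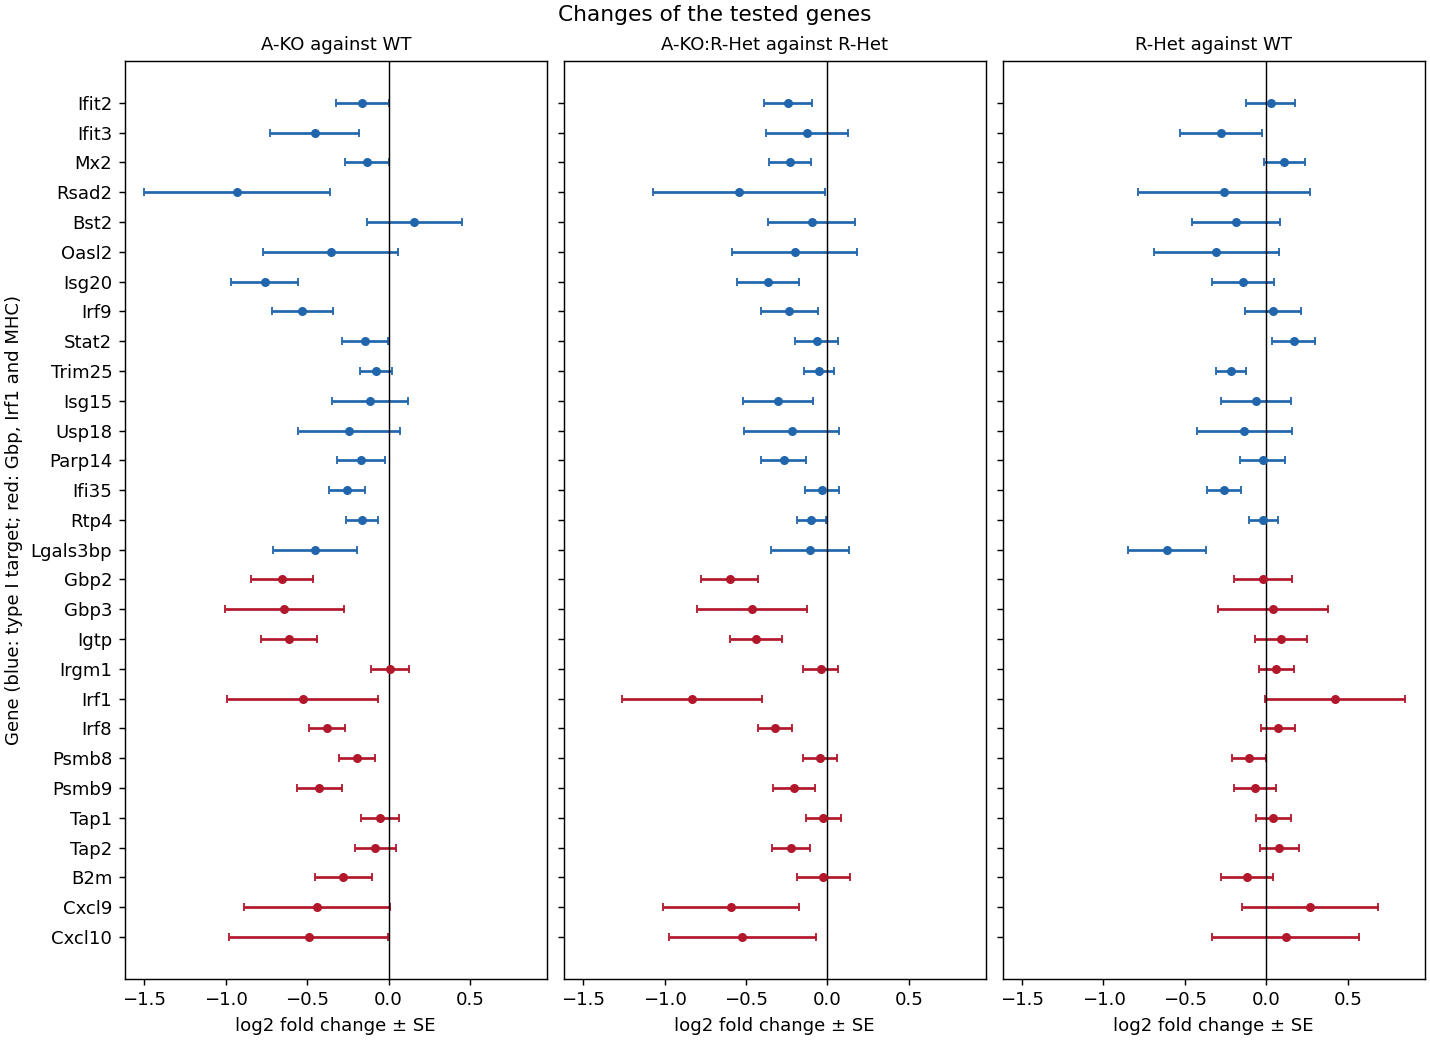
Points are log2 fold changes of the 29 tested genes with SE bars, in 3 comparisons that share an x axis, with type I targets in blue and Gbp, Irf1 and MHC genes in red. Most points lie left of 0 in the first 2 panels, 27 of 29 in A-KO against WT and 29 of 29 in A-KO:R-Het against R-Het. In R-Het against WT the red points lie on both sides of 0.

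Among the other GTPases, Igtp, an immunity-related GTPase that guards host membranes, was close to the threshold. It stood at 7.59, 8.05, 7.57 and 8.10 in WT, 8.09, 7.71, 7.72 and 8.14 in R-Het, 7.12, 7.50 and 7.04 in A-KO, and 7.79, 7.25, 7.49 and 7.38 in A-KO:R-Het. All 3 A-KO arrays lay below every WT array, and 1 A-KO:R-Het array was among the values of mice with Axin2. The averaged change was −0.52 ± 0.12 (adjusted p = 0.0534 in limma), with −0.61 ± 0.17 in A-KO against WT and −0.44 ± 0.16 in A-KO:R-Het against R-Het. Gbp3, a neighbour of Gbp2 in the same family, had an averaged change of −0.55 ± 0.25 (adjusted p = 0.342), and its second probe gave −0.43 ± 0.24. Its arrays ranged from 7.46 to 9.40, with A-KO:R-Het replicate 1 at 9.09 and A-KO:R-Het replicate 3 at 7.49.

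Irgm1, an immunity-related GTPase that restrains the others, depended on the probe. The probe with the highest mean stood at 12.64, 12.76, 12.39 and 12.68 in WT, 12.58, 12.83, 12.75 and 12.56 in R-Het, 12.75, 12.60 and 12.52 in A-KO, and 12.67, 12.41, 12.60 and 12.86 in A-KO:R-Het. It varied little, from 12.39 to 12.86, and its averaged change with Axin2 loss was −0.02 ± 0.08. Another probe of the same gene ranged from 7.17 to 8.95 and gave −0.57 ± 0.20 (unadjusted p = 0.0101, adjusted p = 0.221 over all probes fitted singly). The probes disagreed in size, and no value here settles which reads the transcript of interest.

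The transcription factor Irf1, an early target of interferon gamma, was the most variable gene of its set. It stood at 12.38, 13.10, 12.09 and 12.86 in WT, 13.17, 13.28, 13.06 and 12.61 in R-Het, 11.12, 12.27 and 12.86 in A-KO, and 13.45, 10.91, 12.42 and 12.02 in A-KO:R-Het. A-KO:R-Het replicate 2 and A-KO replicate 1 were at 10.91 and 11.12 with every other array at 12.02 or above, yet A-KO:R-Het replicate 1 was the highest of all 15. The averaged change was −0.68 ± 0.32 (adjusted p = 0.362 in limma), and its 5 probes gave changes from −0.68 to −0.03.

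No tested gene of MHC class I presentation passed the test. Psmb9, a catalytic subunit of the immunoproteasome, stood at 7.75, 8.03, 7.80 and 7.93 in WT, 8.06, 7.48, 7.67 and 8.03 in R-Het, 7.52, 7.61 and 7.23 in A-KO, and 7.69, 7.52, 7.74 and 7.46 in A-KO:R-Het. Every array without Axin2 lay below every WT array, and R-Het overlapped all other groups. Its averaged change was −0.32 ± 0.10 (adjusted p = 0.150). B2m, the light chain of MHC class I, stood at 12.62, 12.81, 12.51 and 12.95 in WT, 12.74, 12.18, 12.58 and 12.92 in R-Het, 12.17, 12.84 and 12.33 in A-KO, and 12.40, 12.77, 12.58 and 12.56 in A-KO:R-Het. The groups overlapped and the averaged change was −0.15 ± 0.12. Psmb8, the partner subunit of the immunoproteasome, and Tap1 and Tap2, the peptide transporter, had averaged changes of −0.12 ± 0.08, −0.04 ± 0.08 and −0.15 ± 0.09.

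The chemokines Cxcl9 and Cxcl10, which draw activated T cells, followed single mice. Cxcl10 stood at 6.88, 8.41, 6.54 and 7.56 in WT, 8.55, 6.88, 6.85 and 7.61 in R-Het, 6.24, 7.17 and 7.18 in A-KO, and 7.92, 6.09, 7.09 and 6.69 in A-KO:R-Het. It was highest in R-Het replicate 1 and WT replicate 2 and lowest in A-KO:R-Het replicate 2 and A-KO replicate 1. Cxcl9 stood at 6.86, 8.11, 6.53 and 7.44 in WT, 8.53, 6.98, 6.79 and 7.70 in R-Het, 6.40, 6.82 and 7.16 in A-KO, and 7.89, 6.01, 6.89 and 6.84 in A-KO:R-Het, with the same 3 mice at the top in the same order. The averaged changes were −0.51 ± 0.33 for Cxcl10 and −0.52 ± 0.31 for Cxcl9, both within the spread between mice.

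Of the 16 type I targets, 0 passed the adjusted threshold for averaged Axin2 loss, against 0.464% of all genes called lower and 0.182% higher. At an unadjusted p under 0.05, 3 of the 16 were lower, against 6.45% of all genes. Isg20, an exonuclease that degrades viral RNA, came nearest. It stood at 7.18, 6.91, 6.55 and 7.25 in WT, 6.99, 6.55, 6.78 and 6.99 in R-Het, 6.28, 6.49 and 5.86 in A-KO, and 6.73, 6.27, 6.04 and 6.81 in A-KO:R-Het. The 3 A-KO arrays lay below every WT and R-Het array, and A-KO:R-Het overlapped both. Isg20 was above the array's median on 9 arrays, none of them A-KO. It thus passed the filter through the other groups, and the A-KO end of its fall lies below the filter level. The averaged change was −0.56 ± 0.14 (adjusted p = 0.0793 in limma), and A-KO against WT gave −0.76 ± 0.21 (adjusted p = 0.124). Without A-KO:R-Het replicate 1 the averaged change was −0.61 and passed.

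Irf9, the DNA-binding subunit of the factor that type I interferon activates, stood at 8.35, 8.33, 8.0 and 8.82 in WT, 8.31, 8.22, 8.44 and 8.70 in R-Het, 7.55, 8.16 and 7.83 in A-KO, and 8.55, 7.96, 8.12 and 8.10 in A-KO:R-Het. A-KO replicate 1 was the lowest array, and the A-KO range reached into that of WT. Its averaged change was −0.38 ± 0.13 (adjusted p = 0.201 in limma). Stat2, its partner, had −0.11 ± 0.10. Trim25, a ubiquitin ligase that activates RNA sensing, had −0.07 ± 0.07 with Axin2 loss.

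The IFIT genes, whose proteins bind foreign RNA, showed the pattern of single mice. Ifit3 stood at 8.13, 8.03, 7.63 and 8.65 in WT, 7.56, 7.65, 7.55 and 8.58 in R-Het, 7.58, 8.20 and 7.19 in A-KO, and 7.46, 7.83, 7.77 and 7.78 in A-KO:R-Het. WT replicate 4 and R-Het replicate 4 were highest, and the averaged change was −0.29 ± 0.19. Ifit2 stood at 7.50, 7.03, 7.21 and 7.62 in WT, 7.26, 7.16, 7.23 and 7.81 in R-Het, 7.13, 7.34 and 7.06 in A-KO, and 6.91, 7.10, 7.24 and 7.24 in A-KO:R-Het. The same 2 mice were highest again, the averaged change was −0.20 ± 0.11, and a second probe of Ifit2 gave 0.03.

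Parp14, an ADP-ribosyltransferase, stood at 7.44, 7.68, 7.54 and 8.03 in WT, 7.54, 7.55, 7.50 and 8.01 in R-Het, 7.53, 7.69 and 7.30 in A-KO, and 7.46, 7.51, 7.29 and 7.26 in A-KO:R-Het. WT replicate 4 and R-Het replicate 4 were the highest, and no other array passed 7.69. Its averaged change was −0.22 ± 0.10 (unadjusted p = 0.0477, adjusted p = 0.360 in limma). The ubiquitin-like modifier Isg15 and its protease Usp18 had −0.21 ± 0.16 and −0.23 ± 0.21. Rsad2 had the largest averaged change of the list at −0.74 ± 0.39 (adjusted p = 0.430), and it was −0.52 without WT replicate 4 and −0.49 without R-Het replicate 4. Oasl2, Mx2, Ifi35 and Rtp4 had averaged changes of −0.28 ± 0.28, −0.18 ± 0.09, −0.14 ± 0.08 and −0.13 ± 0.07.

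In A-KO against WT, which asks about Axin2 loss with both Runx2 alleles present, 27 of 29 genes had a change below 0, against 48.3% of all genes. The exceptions were Bst2 at 0.16 ± 0.29 and Irgm1 at 0.01 ± 0.12. None passed the adjusted threshold in limma, at which 31 of 9914 genes were called (0.313%), and 7 were lower at an unadjusted p under 0.05, against 5.60% of all genes. The 2 groups did not overlap for 5 of the 29 genes, Gbp2, Igtp, Irf8, Psmb9 and Isg20, each lower in A-KO, against 6.32% of all genes lower without overlap. Of these, Isg20 lay below the array's median on every A-KO array. In A-KO:R-Het against R-Het, a comparison that shares no array with the first, 29 of 29 were below 0, against 47.9% of all genes. None passed, as for all genes (0%), and Gbp2, Irf8 and Igtp were lower at an unadjusted p under 0.05, against 3.09% of all genes. Irf8 alone did not overlap between these 2 groups, against 1.29% of all genes lower without overlap.

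The 2 sets stood at different medians in A-KO against WT, −0.21 over the type I targets and −0.42 over the Gbp, Irf1 and MHC genes. Both medians rested in part on single mice. Without WT replicate 4 the type I median was −0.07, without A-KO replicate 4 it was −0.11 and without A-KO replicate 3 it was −0.32. The median of the other set was −0.18 without A-KO replicate 1 and −0.25 without WT replicate 2. Without A-KO replicate 1 the type I median was −0.17, about level with the other set. On chip 2 alone the order of the sets turned, with −0.30 over the type I targets and −0.16 over the Gbp, Irf1 and MHC genes, against −0.27 and −0.55 on chip 1. In A-KO:R-Het against R-Het the medians were −0.21 and −0.32, and without R-Het replicate 4 they were −0.06 and −0.22. On chip 2 alone both were −0.34. Averaged over Runx2 genotypes the medians were −0.21 and −0.35, but −0.33 and −0.19 on chip 2 alone, where the order turned again. Without R-Het replicate 4 the averaged type I median was −0.14. The difference between the sets was not tested.

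Loss of 1 Runx2 allele with Axin2 present, R-Het against WT, gave a median change of −0.02 over the 29 genes and 0.00 over all genes. None of the 29 passed in limma, at which 5 of 9914 genes were called (0.0504%), and 3 were lower at an unadjusted p under 0.05, against 4.62% of all genes. Those 3 were type I targets. Type I targets lay below 0 for 12 of 16, with a median of −0.14, and Gbp, Irf1 and MHC genes for 4 of 13, with a median of 0.06, against 48.7% of all genes below 0. Both medians changed sign with 1 array left out, to 0.07 for the type I targets without WT replicate 4 and to −0.03 for the other set without R-Het replicate 1. Without the 3 arrays with most skeletal muscle marker signal they were −0.37 and −0.24. Lgals3bp, a secreted glycoprotein that binds galectins, stood at 9.67, 9.77, 9.13 and 10.11 in WT, 8.95, 8.52, 8.97 and 9.80 in R-Het, 9.03, 9.64 and 8.99 in A-KO, and 8.75, 9.09, 8.94 and 9.04 in A-KO:R-Het. All WT arrays lay above all A-KO:R-Het arrays, and R-Het replicate 4 was among the highest. Its change was −0.61 ± 0.24 in R-Het against WT (adjusted p = 0.432) and −0.44 ± 0.18 for Runx2 allele loss averaged over Axin2 genotypes (adjusted p = 0.295).

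Averaged Runx2 allele loss called 162 of all 9914 genes (1.63%) and none of the 29. At an unadjusted p under 0.05 it had 2 of the 29 lower and 1 higher, against 6.08% of all genes lower and 6.52% higher. Trim25 had the smallest p at −0.20 ± 0.07 (adjusted p = 0.178 in limma). It stood at 6.72, 6.87, 6.61 and 6.84 in WT, 6.70, 6.30, 6.60 and 6.56 in R-Het, 6.72, 6.73 and 6.59 in A-KO, and 6.43, 6.49, 6.57 and 6.46 in A-KO:R-Het. All A-KO:R-Het arrays lay below all WT and all A-KO arrays, and R-Het ran from 6.30 to 6.70. Stat2 was the one higher at an unadjusted p under 0.05, at 0.21 ± 0.10 (adjusted p = 0.390).

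With both defects, A-KO:R-Het against WT, 26 of 29 genes had a change below 0 against 47.3% of all genes, with a median of −0.29. This comparison uses the same WT arrays as the other 2 against WT. None passed in limma, at which 187 of 9914 were called (1.89%), and 7 were lower at an unadjusted p under 0.05, against 6.53%. Gbp2 was −0.62 ± 0.18 (adjusted p = 0.0888), Lgals3bp −0.72 ± 0.24 (adjusted p = 0.157), Trim25 −0.27 ± 0.09 and Ifi35, a leucine zipper protein, −0.30 ± 0.10. These 4 and Psmb9 were lower without overlap, against 4.09% of all genes. Between the groups without Axin2, A-KO:R-Het against A-KO had a median of 0.05, with 0 of 29 past the threshold in limma and 0 at an unadjusted p under 0.05, against 0.555% and 10.8% of all genes. The interaction, the effect of Axin2 loss in Runx2+/- mice minus that in mice with both alleles, ran from −0.30 for Irf1 to 0.39 for Isg20 and Rsad2, with 0 of 29 past the threshold and 0 at an unadjusted p under 0.05, against 0% and 6.16% of all genes.

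Other genes of the pathway were read from lists. Of the interferon genes themselves, 9 were measured and only Ifna1 and Ifne passed the filter, while Ifnb1, Ifng, Ifna2, Ifna4, Ifna5, Ifna11 and Ifnk stayed below it. Ifna1 stood at 6.51, 6.57, 6.38 and 6.59 in WT, 6.38, 6.40, 6.41 and 6.55 in R-Het, 6.49, 6.51 and 6.47 in A-KO, and 6.33, 6.73, 6.56 and 6.55 in A-KO:R-Het, and the groups overlapped. Ifne, an interferon known from epithelium of the reproductive tract, had a change of −0.07 ± 0.10 in A-KO:R-Het against WT. Of 10 tested receptor and Jak-Stat genes none passed in any comparison, and for averaged Axin2 loss 1 was lower at an unadjusted p under 0.05, against 6.45% of all genes, with a median of −0.13. The smallest p-values there belonged to the kinase Jak2, at −0.26 ± 0.09 with averaged Runx2 allele loss (adjusted p = 0.235), and the receptor chain Ifngr2, at 0.31 ± 0.13 in A-KO:R-Het against A-KO (adjusted p = 0.373).

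Of 13 tested genes of nucleic acid sensing, Cgas, the sensor of cytosolic DNA, fell with averaged Runx2 allele loss by 0.28 ± 0.06 (adjusted p = 0.0339 in limma). It stood at 6.62, 6.80, 6.80 and 6.60 in WT, 6.35, 6.46, 6.47 and 6.36 in R-Het, 6.76, 6.57 and 6.72 in A-KO, and 6.29, 6.41, 6.39 and 6.59 in A-KO:R-Het. R-Het and WT did not overlap, and A-KO:R-Het replicate 4 lay within the A-KO range. On every R-Het array Cgas lay below the array's median, and on every WT and A-KO array above it. Cgas thus passed the filter mainly through the groups where it was high, and its fall lies near the filter level. Averaged Runx2 allele loss called 1.63% of all genes. Of 19 tested further type I targets, Ifitm1, a membrane protein that blocks virus entry, fell in A-KO:R-Het against WT by 0.59 ± 0.12 (adjusted p = 0.0224) and with averaged Runx2 allele loss by 0.44 ± 0.09 (adjusted p = 0.0202). It stood at 7.31, 7.43, 7.70 and 7.55 in WT, 6.81, 7.36, 7.29 and 6.88 in R-Het, 7.38, 7.41 and 7.35 in A-KO, and 6.99, 7.04, 6.80 and 6.79 in A-KO:R-Het. Every A-KO:R-Het array lay below every WT and A-KO array. A-KO:R-Het against WT called 1.89% of all genes, and averaged Runx2 allele loss 1.63%. The list's median for averaged Runx2 allele loss was −0.07, with 17 of 19 below 0 against 50.1% of all genes, and for averaged Axin2 loss −0.04, with 12 of 19 below 0 against 46.8% of all genes.

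Further Gbp, immunity-related GTPase and MHC genes numbered 19 tested, and none passed in any comparison. For averaged Axin2 loss 5 were lower at an unadjusted p under 0.05, against 6.45% of all genes, 15 lay below 0, against 46.8%, and the median was −0.10. Irgm2, an immunity-related GTPase close to Irgm1, had the smallest p at −0.49 ± 0.12 (adjusted p = 0.0728 in limma). It stood at 8.20, 8.70, 8.22 and 8.51 in WT, 8.67, 8.24, 8.15 and 8.52 in R-Het, 7.81, 7.95 and 7.74 in A-KO, and 8.49, 7.80, 7.85 and 7.82 in A-KO:R-Het. All A-KO arrays lay below all WT and R-Het arrays, and among A-KO:R-Het arrays replicate 1 was within their range. Ifi47, another GTPase of that family, had −0.43 ± 0.15, and the immune checkpoint ligand Cd274 had −0.35 ± 0.09 (adjusted p = 0.102). H2-DMa, which loads MHC class II with peptide, was 0.43 ± 0.11 higher in A-KO:R-Het than in A-KO on the log2 scale without passing (adjusted p = 0.0968).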

How the data were processed

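Gene expression was measured on single-colour Illumina bead arrays. The authors deposited 1 normalized, linear intensity per probe and array. Their background correction and normalization were not given in the sources used here. A second deposited table of scanner signals was not used, because its 32 columns match no sample label. Groups came from the genotype labels. Replicates were numbered in record order and were not paired.

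Intensities were floored at 1, below which there were 0 values, and converted to log2. Of 25697 probes, 23978 had 1 gene symbol, 0 had several and 1719 had none, and 23962 matched a RefSeq gene of GRCm38.p6. Probes above the array's median on at least 3 of 15 arrays were kept (14212, of which 13381 named), and the probe with the highest mean stood for a gene. One mean per genotype was fitted in limma 3.58.1 under R 4.3.3 with empirical Bayes moderation, and p-values were adjusted (Benjamini-Hochberg) over 9914 genes and called under 0.05. The script was tested on simulated data. The number of arrays limits the precision. RefSeq promoters were searched by letters.

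The members and lists were chosen with earlier results of these data known. Array values are given for members past the threshold, for the member of each role with the highest mean and that with the smallest p, and of each pathway list for members past the threshold or otherwise the 2 with the smallest p. Array values of Oasl2 and Igtp and single values quoted in passing for other members were added after their values were seen. Some genes are not analysed here. Alternatives covered chip, damaged array, muscle markers, scaling, filters, probes, array weights and each array left out in turn.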

Additional observations from a re-analysis of the deposited data

Results flagged for a closer look

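Within groups of 4 arrays, 6 values of a tested gene stood apart from the others of their genotype, on 3 arrays in all, by a gap above the 95% critical value of Dixon's ratio. There were 87 such groups of values, and chance flags about 5% of them. Gbp2 was low in R-Het replicate 3, at 8.37 against 9.03 to 9.11 in the other R-Het arrays. In R-Het replicate 4, 3 type I targets were high, with Ifit2 at 7.81 against 7.16 to 7.26, Ifit3 at 8.58 against 7.55 to 7.65 and Parp14 at 8.01 against 7.50 to 7.55. In A-KO:R-Het replicate 1, Ifit3 was low at 7.46 against 7.77 to 7.83, and Mx2 was high at 6.66 against 6.22 to 6.27. Among 58 pairs of gene and contrast examined for opposite effects of a defect on the 2 backgrounds, none had every array of the groups on opposite sides.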

How the results depend on the processing

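No paired analysis was possible because the labels carry no replicate numbers. The 2 genes called for averaged Axin2 loss were 1 with chip as a block and with muscle marker level as a covariate, 0 on chip 1 alone, on chip 2 alone, with the damaged array kept and without the 3 arrays highest in muscle markers, and 0 to 4 with each array left out in turn. In A-KO:R-Het against WT 1 gene passed with array weights, and 0 to 1 with each array left out. For averaged Runx2 allele loss 1 passed without the 3 muscle-rich arrays. Over all genes, averaged Axin2 loss called 64, and between 0 (chip 1 alone) and 216 (array weights) under the alternatives, with 31 and 0 to 119 in A-KO against WT, 5 and 0 to 17 in R-Het against WT, 187 and 0 to 351 in A-KO:R-Het against WT, 55 and 0 to 163 in A-KO:R-Het against A-KO, and 162 and 1 to 326 for averaged Runx2 allele loss. Fewer arrays were fitted on 1 chip, and the cause of the other shifts was not tested. The median of the Gbp, Irf1 and MHC genes in A-KO against WT was −0.16 on chip 2 alone and −0.47 to −0.18 with each array left out. Without the 3 muscle-rich arrays, R-Het against WT had medians of −0.31 over all members and −0.24 over the Gbp, Irf1 and MHC genes, and the interaction had medians of 0.31 over all members, 0.36 over type I targets and 0.30 over the other set. On chip 1 alone the Gbp, Irf1 and MHC median in A-KO:R-Het against A-KO was 0.36. Changes near 0 turned sign. Irgm1 with averaged Axin2 loss was 0.054 on chip 2 alone, 0.18 with the damaged array kept and −0.054 to 0.021 with each array left out in turn, above 0 without R-Het replicate 2, WT replicate 2, A-KO:R-Het replicate 2 or A-KO replicate 4. In R-Het against WT it was −0.014 to 0.11 with each array left out, below 0 without WT replicate 3. B2m with the damaged array kept was 0.12 in A-KO against WT and 0.049 for averaged Axin2 loss, and the other probe of Ifit2, an alternative chosen after seeing the data, gave 0.025. Gbp2 kept its direction in all 27 alternatives, from −0.72 to −0.55, and Irf8 from −0.39 to −0.30, though their calls were lost in 15 and 19 of these, Irf8's also with the muscle covariate. Over all results and alternatives, 34 gene calls were lost and 1 was gained, 10 gene changes turned sign, and 32 counts or medians moved, most of them the count called for averaged Axin2 loss.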

Other observations

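The array labelled damaged, A-KO replicate 2, entered no comparison. Its centred level was −0.01 over the 16 type I targets, within the WT range of −0.17 to 0.65, and 0.13 over the 13 Gbp, Irf1 and MHC genes, within the WT range of −0.10 to 0.38. Single genes on it lay outside that range, since 4 of 29 were above every WT array and 10 of 29 below every WT array. The same share over all genes was not computed. This array's mean correlation with the others was 0.949, against 0.982 to 0.986 for the arrays used. Without the share over all genes, it cannot be told whether the counts are particular to these genes.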
